A study of Mus musculus with 55 samples.

Results

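The loss of CTCF was examined in mouse embryonic stem (ES) cells at 90 and 120 min after release from mitosis. Pre-mRNA of CTCF-AID cells treated with the auxin indole-3-acetic acid (+IAA) was compared with that of untreated CTCF-AID cells (−IAA). The comparison holds 8 of the 55 libraries of the series. These are replicates 1 and 3 at 90 min and replicates 1 and 2 at 120 min, each with and without IAA, and every +IAA library was set against the −IAA library of the same time and replicate number. The 4 pairs therefore come from 3 replicate experiments, of which replicate 1 gives a pair at each time. CTCF-AID is a single clone of the E14Tg2a line in which CTCF carries an auxin-inducible degron, so that auxin sends the protein to the proteasome. In both arms the cells were held with 10 µM RO-3306, an inhibitor of CDK1, for 4 h and then with 50 ng/ml nocodazole for 4 h, collected by shake-off and released in medium with serum and LIF. In the +IAA arm 0.5 mM IAA was present for the last 2 h of nocodazole and throughout the release. Asynchronous cells, used for comparison below, were exposed to IAA for 4 h in the +IAA arm without the arrest. After release the length of exposure therefore grows with time and cannot be told apart from it. At 120 min it matches the 4 h of asynchronous cells, and at earlier stages it is shorter. At each stage both arms carry the degron and were otherwise handled alike, and no library of untagged cells with IAA was analysed here, so an action of IAA other than the loss of CTCF cannot be told apart from it.

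CTCF is a zinc finger protein that binds a long, directional DNA motif, holds cohesin at the borders of chromatin loops and also binds close to many gene starts. Pre-mRNA still contains its introns and is spliced soon after it is made, so its level follows ongoing transcription more closely than that of mature mRNA. ES cells have a short G1, and by the later time points of the release most of the transcription shut off in mitosis has resumed.

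Levels are in TPM, a length-normalised unit of transcript abundance, of the pre-mRNA of 10237 genes. The listed genes add up to between 26358 and 31718 TPM in the libraries of replicates 1 and 2, and to 38934 TPM without and 37489 TPM with IAA in the 90 min libraries of replicate 3, which stand apart from the others in both arms alike. Of the 18 markers fixed for ES cells 17 were listed, and together they summed to between 128 and 194 TPM without IAA and between 122 and 180 TPM with IAA. Of the markers of other cell types few were listed, with 1 of 9 genes listed for primitive endoderm, 4 of 8 for trophectoderm, 2 of 5 for mesoderm, 2 of 6 for neural cells, 3 of 11 for 2-cell-like cells and 2 of 6 for fibroblasts. The listed neural genes summed to between 2.01 and 6.46 TPM without and 2.25 and 5.91 TPM with IAA, and those for trophectoderm to between 0.753 and 3.27 TPM without and 0.936 and 2.78 TPM with IAA. The 2 listed mesoderm genes, Tbx6 and Brachyury, summed to at most 2.8 TPM without and 3.75 TPM with IAA, both in replicate 2 at 120 min. None of these marker genes other than Klf5 was called between the arms. The degron removes the protein, so the Ctcf transcript is no check of the depletion. Ctcf pre-mRNA measured 7.34, 10.3, 7.3 and 8.89 TPM without IAA (90 min replicates 1 and 3, 120 min replicates 1 and 2, an order kept below) and 8.6, 11.8, 7.8 and 10.8 TPM with IAA. It was higher with IAA in each pair, by 0.18 ± 0.04 (SE) on the log2(TPM + 1) scale, and the ranges of the arms overlap. With an adjusted p of 0.00997 in limma, this difference stayed below the 0.2 required of a called gene.

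A minority of genes changed. A gene was called when its Benjamini-Hochberg adjusted p was under 0.1 in limma and its mean difference, +IAA less −IAA on the log2(TPM + 1) scale, exceeded 0.2 in size. By this rule 260 genes were lower with IAA (2.54% of the 10237 tested) and 119 were higher (1.16%). In size, 54 lower genes and 20 higher genes passed 0.5, and 7 lower genes but no higher gene passed 1. The median was −0.33 among the lower genes and 0.30 among the higher. The calls rest on the same 4 pairs, so the next counts describe the called genes and are no support for them. All 4 pairs had the same sign for 257 of the 260 lower and 117 of the 119 higher genes, against 2163 of all genes (21.1%). The TPM of the arms did not overlap for 135 lower and 47 higher genes, against 231 of all genes (2.26%). The median over all genes was 0.01 and −0.02 in the 90 min pairs and −0.07 and 0.05 in the 120 min pairs, with a mean of −0.01 (exact sign-flip permutation test over 4 pairs, two-sided p = 0.75, in a design that cannot reach 0.05). Median levels were 2.06 TPM for lower and 2.04 TPM for higher genes beside 2.07 TPM for all. The median span of the higher genes was 11897 bases, against 22646 for the lower genes and 22508 for all. Without the pairing of libraries, limma called 109 lower and 43 higher genes, all of them among those above.

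**Figure D1:**
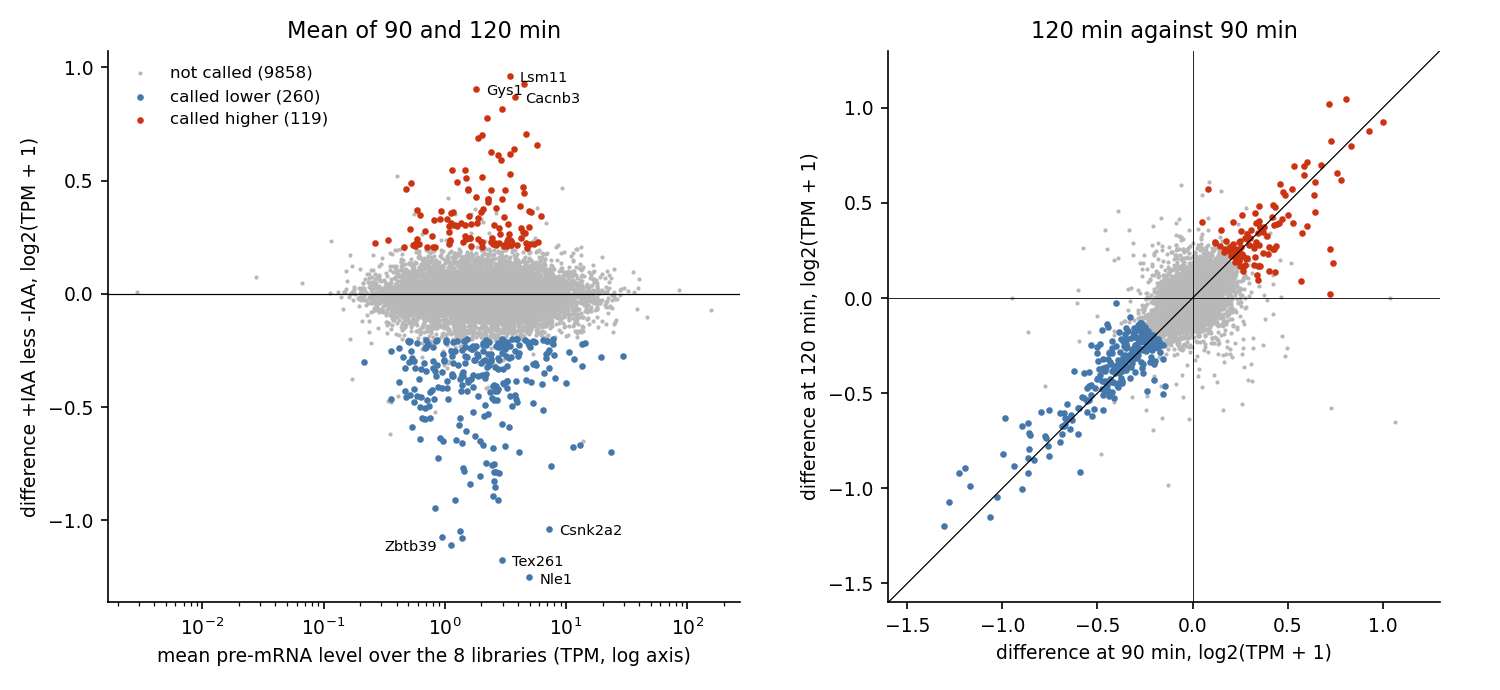
Left, the mean difference of the 4 pairs (+IAA less −IAA, log2 of TPM + 1) against the mean level over the 8 libraries (TPM, log axis) for 10237 genes, with called genes in blue (260 lower) and red (119 higher). Right, the difference at 120 min against that at 90 min for the same genes, where the line marks equal values and most called genes lie near it.

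The gene with the largest decrease was Nle1 (chr11:82900768-82908411 on GRCm38, minus strand), which encodes a factor of large ribosomal subunit assembly. Its pre-mRNA measured 6.79, 9.06, 6.37 and 7.44 TPM without IAA and 2.49, 2.67, 2.36 and 2.51 TPM with IAA. The +IAA level was thus 33.8% of the −IAA level, the log2 difference was −1.25 ± 0.05 (SE) and the arms lay far apart (limma, adjusted p = 2.09e-09). Here and elsewhere the SE of a log2 difference comes from the limma fit. Its spread is pooled over all stages and is not that of the 4 pairs alone. Tex261 (chr6:83768885-83775813) went from 5, 5.48, 4.34 and 3.13 TPM to 1.55, 1.58, 1.47 and 1.02 TPM, a difference of −1.18 ± 0.08. Each of its +IAA libraries was below the lowest −IAA library. Among the 10 lower genes with the largest changes and a mean of at least 1 TPM, the deepest loss in relative terms was that of Zbtb39 (chr10:127739538-127747349), which encodes a zinc finger protein with a BTB domain. It fell from 1.86, 1.97, 1.67 and 2.15 TPM to 0.27, 0.534, 0.312 and 0.298 TPM, 18.5% of the −IAA level.

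The kinase subunit gene Csnk2a2 (chr8:95446096-95490039), which encodes a catalytic subunit of casein kinase 2, was the most abundant of the 10 lower genes with the largest changes. It measured 9.05, 11.6, 9.4 and 10.3 TPM without IAA and 4.13, 4.92, 3.85 and 4.7 TPM with IAA (log2 difference −1.04 ± 0.06; limma, adjusted p = 3.76e-08). All 4 +IAA values lay below 5 TPM and all 4 −IAA values above 9 TPM. The phosphatase gene Dusp12 retained 23.5% of its −IAA level, from 2.26 ± 0.53 to 0.531 ± 0.136 TPM (mean ± SD, n = 4 libraries). Mrps2, a protein of the small mitochondrial ribosomal subunit, retained 24%, from 2.17 ± 0.52 to 0.522 ± 0.077 TPM. The remaining 4 of these genes were Rab12, a small GTPase of membrane traffic, Tmem136, Krtcap2, a subunit of the oligosaccharyltransferase, and Adprhl2, an ADP-ribosyl hydrolase. With IAA they stood at 41, 28.1, 40.8 and 42.9% of their −IAA levels, and the arms did not overlap for any of them.

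Among the genes with more pre-mRNA after depletion Lsm11 (chr11:45928269-45944935, minus strand) came first. Lsm11 is a component of the U7 ribonucleoprotein that processes the 3′ ends of histone transcripts. It measured 1.95, 2.32, 1.76 and 1.96 TPM without IAA and 4.83, 5.73, 4.14 and 4.7 TPM with IAA, a difference of 0.96 ± 0.05 (limma, adjusted p = 1.48e-08). The +IAA level was 2.43 times the −IAA level and the arms were far apart. Gys1 (chr7:45434844-45456619), the glycogen synthase of muscle and most other tissues, had the largest ratio of the 10 leading higher genes, 2.83. It rose from 0.92, 1.37, 0.798 and 0.699 TPM to 2.34, 3.94, 1.92 and 2.54 TPM, with no overlap. Vgf, which encodes a precursor of secreted neuropeptides, rose from 2.76 ± 0.68 to 6.28 ± 2.14 TPM (mean ± SD, n = 4 libraries).

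Cacnb3 (chr15:98630840-98644529) encodes a β subunit of voltage-gated calcium channels. It measured 1.69, 3.19, 1.71 and 2.82 TPM without IAA and 3.95, 5.13, 3.79 and 7.93 TPM with IAA, the highest value being that of replicate 2 at 120 min (0.87 ± 0.08; limma, adjusted p = 2e-06). Its pair differences ran from 0.55 to 1.22. Further along the same chromosome Prkag1 (chr15:98812797-98831521), a regulatory subunit of the AMP-activated kinase, rose from 3.29 ± 0.51 to 6.04 ± 1.12 TPM. Dtwd2, a tRNA-modifying enzyme, and Ccdc136 were 2.19 and 2.24 times higher with IAA, and Vps37d, a subunit of the ESCRT-I complex, was 2.1 times higher. For Mmgt2, a membrane magnesium transporter, and Tfap2c, the transcription factor AP-2γ, every pair rose but the ranges overlapped. Tfap2c measured 3.31, 5.66, 2.78 and 5.17 TPM without IAA and 5.59, 9.02, 5.64 and 8.47 TPM with IAA. The overlap came from replicate 3 at 90 min, whose −IAA level was as high as the lowest +IAA levels, and without the pairing the adjusted p of Tfap2c in limma was 0.101.

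**Figure D2:**
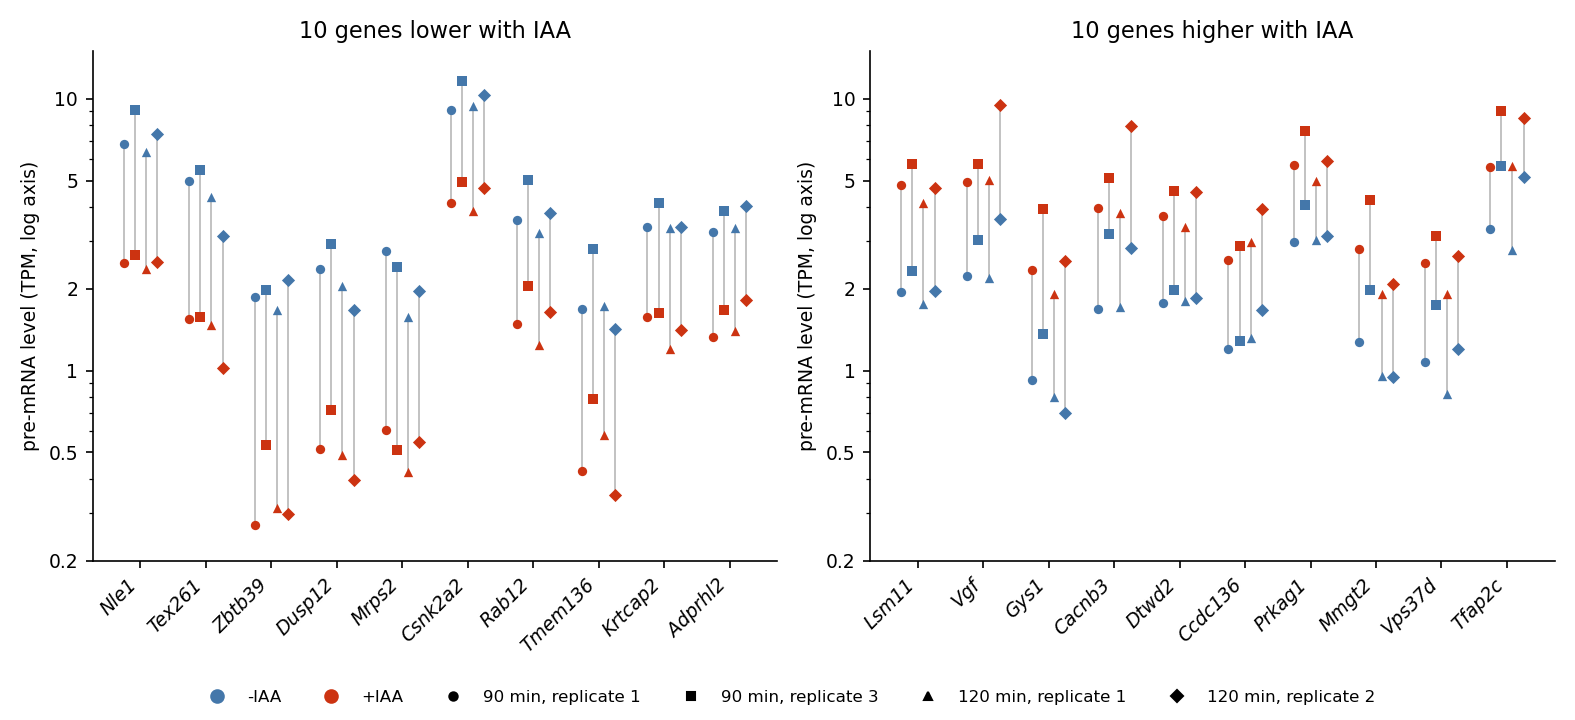
Pre-mRNA levels (TPM, log axis) in each of the 8 libraries for the 10 lower (left) and 10 higher (right) genes with the largest changes. Blue symbols are −IAA and red symbols +IAA libraries, symbol shapes give time and replicate, and grey lines join the libraries of a pair, all of which run in 1 direction within a gene.

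The sequence around the starts of the called genes was then searched for the core of the CTCF motif, CCNNNAGNNGGC on either strand, in RefSeq windows (GRCm38.p6) from 250 bases before to 50 bases after a start. Windows were found for 200 of the 260 lower, 94 of the 119 higher and 8199 of all 10237 genes. A match was present for 78 lower genes (39%) and 21 higher genes (22.3%), beside 1268 of all genes (15.5%). A stricter core, CCNNNAGGNGGC, which is contained in the first, was present for 25% of lower and 17% of higher genes beside 6.88% of all. Counted over single windows of this length, 13% of 10432 held the core and 5.69% the stricter form. The share with the core was 42.2% among the lower genes that changed by more than 0.5 and 38.1% among those that changed less. Among the higher genes it was 33.3% (5 of 15) and 20.3% (16 of 79). Base composition was alike, with a median GC content of 61.7% for lower genes, 63.3% for higher genes and 61.7% for all. Matches were counted in each window, so that 1 site in overlapping windows of a gene counts more than once. In lower genes 66 of 90 matches (73.3%) read in the direction of the gene, beside 55.1% of the matches of all genes and 10 of 26 in higher genes. The centres of the matches lay at a median position of −67.5 bases relative to the start in lower genes, with quartiles of −108 and −37.2, and at −73 bases in higher genes, with quartiles of −104 and −18.5. A match is a description of the letters in the window and does not show that CTCF was bound there.

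**Figure D3:**
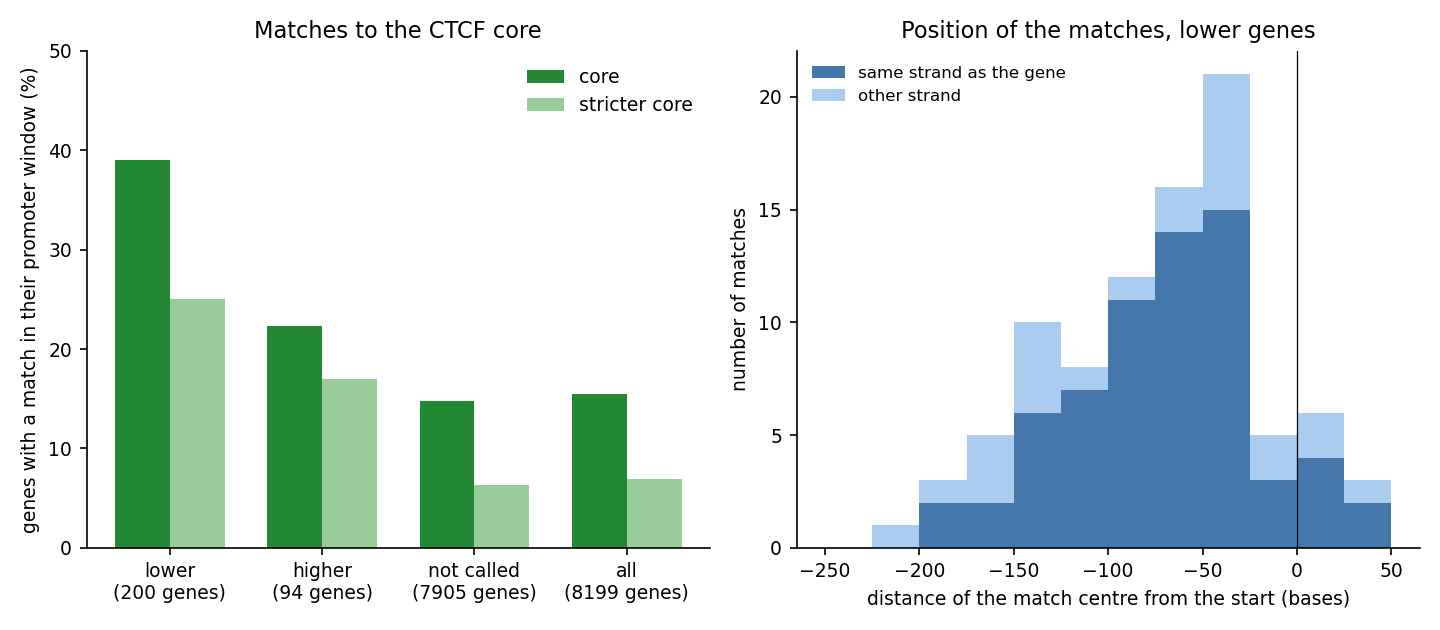
Left, the percentage of genes whose promoter window holds the CTCF core or its stricter form, for genes lower, higher or not called at 90 to 120 min and for all genes. Right, the distance in bases of the match centres from the start for the 90 matches of the lower genes, stacked by strand relative to the gene, of which 63 lie from 100 bases before the start onwards and 27 further upstream.

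Of the 10 lower genes with the largest changes 9 had a window, and 4 of these held a core, namely Zbtb39, Rab12, Krtcap2 and Adprhl2. Among the 10 leading higher genes 6 had a window and 3 held a core, of which those of Lsm11 and Gys1 are given. For each of these 6 genes 1 window is printed 5′ to 3′ on the strand of the gene, with the core matches in capitals. They lie at chr10:127739280-127739579 (plus strand) for Zbtb39, chr17:66519621-66519920 (minus) for Rab12, chr3:89246188-89246487 (plus) for Krtcap2, chr4:126321654-126321953 (minus) for Adprhl2, chr11:45944886-45945185 (minus) for Lsm11 and chr7:45434589-45434888 (plus) for Gys1.
Zbtb39: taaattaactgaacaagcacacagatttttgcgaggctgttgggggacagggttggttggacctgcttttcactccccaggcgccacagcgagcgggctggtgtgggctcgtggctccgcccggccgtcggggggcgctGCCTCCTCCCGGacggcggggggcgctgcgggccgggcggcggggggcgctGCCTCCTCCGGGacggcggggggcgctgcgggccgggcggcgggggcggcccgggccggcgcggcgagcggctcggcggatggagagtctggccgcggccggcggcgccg
Rab12: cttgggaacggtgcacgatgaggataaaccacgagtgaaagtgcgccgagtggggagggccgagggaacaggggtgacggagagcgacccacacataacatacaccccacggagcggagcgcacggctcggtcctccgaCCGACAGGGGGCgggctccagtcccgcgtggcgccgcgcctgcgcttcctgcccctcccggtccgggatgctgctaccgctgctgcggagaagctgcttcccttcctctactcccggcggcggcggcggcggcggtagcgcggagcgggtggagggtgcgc
Krtcap2: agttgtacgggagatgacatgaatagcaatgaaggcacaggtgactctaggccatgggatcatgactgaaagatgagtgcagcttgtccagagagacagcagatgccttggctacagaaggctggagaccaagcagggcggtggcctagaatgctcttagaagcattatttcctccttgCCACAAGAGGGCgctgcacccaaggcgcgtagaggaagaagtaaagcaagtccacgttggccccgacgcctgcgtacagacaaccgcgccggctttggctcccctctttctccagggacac
Adprhl2: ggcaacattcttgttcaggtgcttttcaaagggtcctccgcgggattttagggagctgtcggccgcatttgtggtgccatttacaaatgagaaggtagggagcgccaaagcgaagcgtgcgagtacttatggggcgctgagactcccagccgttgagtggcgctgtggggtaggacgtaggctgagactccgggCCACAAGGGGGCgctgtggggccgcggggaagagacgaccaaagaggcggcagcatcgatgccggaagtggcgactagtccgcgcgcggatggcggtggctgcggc
Lsm11: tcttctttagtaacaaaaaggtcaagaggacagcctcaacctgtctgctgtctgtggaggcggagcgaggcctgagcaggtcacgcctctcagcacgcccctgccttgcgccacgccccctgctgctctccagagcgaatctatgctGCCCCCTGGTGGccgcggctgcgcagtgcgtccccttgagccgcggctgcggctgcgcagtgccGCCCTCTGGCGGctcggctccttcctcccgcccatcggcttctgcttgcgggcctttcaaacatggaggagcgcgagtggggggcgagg
Gys1: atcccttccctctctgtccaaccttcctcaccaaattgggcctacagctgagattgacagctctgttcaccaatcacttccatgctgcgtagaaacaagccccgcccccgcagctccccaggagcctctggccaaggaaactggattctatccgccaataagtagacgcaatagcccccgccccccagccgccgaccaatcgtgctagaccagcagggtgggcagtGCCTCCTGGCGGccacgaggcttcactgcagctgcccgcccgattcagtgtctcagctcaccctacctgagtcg
The capitals of Rab12, Krtcap2 and Adprhl2 read in the direction of the gene, at 105, 65 and 50 bases before the start of the printed window. Krtcap2 has a second, overlapping RefSeq window from a start further downstream, in which the same letters are centred at −100. Those of Zbtb39, Lsm11 and Gys1 read on the other strand. Zbtb39 and Lsm11 have 2 matches each, and of the 6 windows only that of Krtcap2 lacks the stricter form. With Rab12 at 3.59, 5.03, 3.22 and 3.8 TPM without and 1.48, 2.04, 1.25 and 1.64 TPM with IAA, and Adprhl2 at 3.24, 3.87, 3.33 and 4.03 TPM without and 1.33, 1.67, 1.4 and 1.81 TPM with IAA, the arms of both genes were clearly separate. Nle1, Tex261, Dusp12, Mrps2 and Csnk2a2 have no match in their windows.

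The neighbours of the called genes were then examined, as a description. Over 10209 genes with 1 position in Gencode vM21, the nearest listed gene was itself lower for 21 of 260 lower genes (8.08%), for 5 of 119 higher genes (4.2%) and for 2.28% of genes that were not called. In all 19 pairs of nearest neighbours were called together, 13 of them both lower, 1 both higher and 5 in opposite directions. Overlap of the genes was found in 7 of the 19 pairs. Reads of overlapping genes may not be fully separable, and whether the quantification used the strand is not given in the sources used here. Nle1 and Unc45b, which start 2139 bases apart on opposite strands, were both lower (−1.25 ± 0.05 and −0.27 ± 0.04, SE). On chromosome 6 the zinc finger genes Zfp212, Zfp282 and Zfp398, which lie side by side, were lower by −0.28, −0.34 and −0.63. Of the pairs called in opposite directions all overlap but that of Polr3a and Rps24, whose starts are 67 bases apart on opposite strands of chromosome 14. Polr3a is the largest subunit of RNA polymerase III, and Rps24 is a protein of the small ribosomal subunit. Polr3a went from 2.98, 4.55, 2.69 and 2.99 TPM to 2.07, 2.81, 1.72 and 2.19 TPM, whereas Rps24 went from 2.45, 2.58, 2.51 and 2.82 TPM to 3.95, 3.48, 3.32 and 3.45 TPM. Every pair of libraries showed the loss of the former and the gain of the latter (−0.42 ± 0.04 and 0.34 ± 0.05).

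Saal1, Map4k5, Carm1, Rpia and Ncoa1 are examples of the study, chosen on these samples, and their direction is not independent evidence. Saal1 fell to 39.2% of its −IAA level, from 1.05, 1.34, 1.03 and 0.95 TPM to 0.404, 0.534, 0.379 and 0.398 TPM, with no overlap of the arms. Map4k5, a kinase of the MAP kinase cascade, fell by 0.29 ± 0.04 on the log2 scale. Carm1, an arginine methyltransferase, and Rpia, an enzyme of the pentose phosphate pathway, rose by 0.36 ± 0.05 each. Ncoa1, a coactivator of nuclear receptors, measured 1.55 ± 0.42 TPM without and 1.72 ± 0.49 TPM with IAA (mean ± SD, n = 4) and was not called.  Without the pairing, Map4k5 and Carm1 missed the threshold, with adjusted p of 0.118 and 0.657 in limma.

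Gene groups were described by the number of their members called, beside 2.54% lower and 1.16% higher among all genes. Of 91 genes of ribosomal proteins 6 were lower (6.59%) and 1 was higher, and the median of the list was −0.02. The largest change was that of Rpl36, from 28.7, 30.6, 27.9 and 29.4 TPM to 18.2, 15.2, 16.7 and 20.5 TPM (−0.70 ± 0.08), with each +IAA library below each −IAA library. Rpl36a and Rplp0, which fell by 0.39 and 0.33, lost their call without the pairing (adjusted p of 0.113 and 0.392 in limma), and the call of Rplp0 also ended without replicate 1. Of 85 nuclear-encoded genes of oxidative phosphorylation 6 were lower (7.06%) and none was higher, while the median was 0.00225. Ndufb7 and Ndufab1, subunits of complex I, fell to 40.9 and 46.8% of their −IAA levels. Ndufab1 measured 3.57, 3.79, 3.81 and 3.97 TPM without and 1.57, 2, 1.58 and 1.94 TPM with IAA, without overlap. Ndufaf4, an assembly factor of complex I, fell by 0.54, and Atp5g2, a subunit of ATP synthase, by 0.25 (without the pairing, adjusted p = 0.896). Among 284 Zfp genes 6 were lower (2.11%) and 1, Zfp41, was higher (0.352%).

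In each of 5 further lists 1 gene was called. Bysl, required for maturation of the small ribosomal subunit, was the single called gene of 34 in ribosome biogenesis and fell from 2.43, 3.66, 2.03 and 2.29 TPM to 1.3, 1.74, 0.913 and 1.17 TPM. Its arms did not overlap, and its +IAA level was 49.2% of the −IAA level. Klf5, the only call among 23 genes of naive and core pluripotency, fell by 0.20 ± 0.06 (limma, adjusted p = 0.0488), Ccne1 rose by 0.23 ± 0.06 among 39 genes of G1/S and replication licensing, Srf rose by 0.34 ± 0.07 among 13 immediate early genes, and Hoxb9 fell by 0.30 ± 0.09 among 7 Hox genes. The arms overlapped for these 4 genes and none kept its call without the pairing. Klf5 also lost it without replicate 1 at 90 min (adjusted p = 0.156 in limma), at 120 min (0.214) or at both times (0.609). The same held with 1 value per replicate experiment (0.134), with the replicate number as a random block (difference −0.199) and under both scalings of the libraries (differences −0.186 and −0.185, below 0.2 in size). Ccne1 lost its call without replicate 1 at 90 min (0.145) or at both times (0.161), or without replicate 2 at 120 min (0.132). Hoxb9 lost its call without replicate 3 at 90 min (0.189), replicate 1 at 120 min (0.178) or replicate 2 at 120 min (0.142), or with a pseudocount of 0.1 TPM (0.206). No gene was called in 12 lists, which together hold 181 listed genes. They comprise CTCF, cohesin and cohesin regulators (18 genes), condensin and topoisomerase II (8), formative and primed genes (7), clustered protocadherins (2), imprinted genes (25), p53 targets (16), mitotic genes (24), replication-dependent histones (5), the Myc network (12), chaperones (15), Polycomb and DNA methylation (30) and tubulins (19). Their medians ran from −0.08 to 0.03. Among the most abundant members of the CTCF and cohesin list, Maz measured 12.4 ± 1.1 TPM without and 14.2 ± 1.9 TPM with IAA (mean ± SD, n = 4). Yy1 of the same list measured 10.7 ± 2.9 and 10.4 ± 2.2 TPM. Top2a of the condensin list measured 11.4 ± 3.7 and 11.7 ± 2.6 TPM.

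At 90 min alone 233 genes were lower (2.28%) and 115 higher (1.12%), and at 120 min alone 187 were lower (1.83%) and 88 higher (0.86%). No gene was called for a difference between 120 and 90 min in its response to IAA (0 called, 0%; 238 genes at an unadjusted p under 0.05 in limma). None was called without the pairing either. With so few pairs at each time real differences can be missed, so this does not show equal responses. Nle1 changed by −1.31 and −1.20, Csnk2a2 by −1.03 and −1.04, Krtcap2 by −0.87 and −0.92, Lsm11 by 1.00 and 0.92 and Gys1 by 0.93 and 0.88 at 90 and 120 min. The estimates of other genes lay further apart, such as Mrps2 (−1.20 and −0.89), Vgf (0.81 and 1.05) and Cacnb3 (0.72 and 1.02). None of these differences was called, that of Mrps2 being 0.30 ± 0.22 (SE). Ndufb7 changed by −0.98 and −0.63 and was not called at 120 min alone.

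The genes called at 90 to 120 min were followed in the libraries of the other stages. The differences in those libraries did not enter the rule, but all 36 libraries share 1 fit and so 1 estimate of the spread of each gene. The fit of the 8 libraries alone called 420 genes, of which 375 were shared. Over all genes, the median rise from mitosis in −IAA cells was highest at 50 to 60 min. In this interval 139 of the 260 lower genes (53.5%) were called lower too, which is 75.5% of the 184 lower genes of that time (1.8% of all genes). Of the 119 higher genes 46 (38.7%) were called higher, 50% of the 92 higher genes of that time (0.899%). In asynchronous cells 165 of the lower genes (63.5%) were lower, 72.7% of 227 (2.22%), and 74 of the higher genes (62.2%) were higher, 42% of 176 (1.72%). None of these genes was called in the opposite direction at 50 to 60 min or in asynchronous cells. At 20 to 40 min 48 of the lower genes (18.5%) were called lower, 55.2% of 87 (0.85%), and 10 of the higher genes (8.4%) were called higher, 76.9% of 13 (0.127%). At that stage 1 of the lower genes was called higher. In mitotic cells, already exposed to IAA, no gene at all was called in limma (436 at an unadjusted p under 0.05). The median difference of the 260 lower genes was between −0.01 and −0.10 in the 3 mitotic pairs, −0.13 and −0.09 at 20 min, −0.16 and −0.12 at 40 min, −0.21 and −0.22 at 50 min, −0.29 and −0.21 at 60 min, −0.32 and −0.41 at 90 min, −0.40 and −0.26 at 120 min and between −0.22 and −0.38 in the 3 asynchronous pairs. The medians at 90 and 120 min were fixed in sign by the choice of the genes. The median over all genes was itself below 0 in several of these pairs, at −0.10 and −0.02 at 20 min, −0.07 and −0.03 at 40 min, −0.03 and −0.01 at 60 min and −0.04 and −0.03 in 2 of the 3 mitotic pairs. For the 119 higher genes the median was between 0.02 and 0.03 in mitosis, −0.03 and 0.07 at 20 min, 0.06 and 0.08 at 40 min, 0.21 and 0.17 at 50 min, 0.21 and 0.18 at 60 min, and between 0.26 and 0.30 in asynchronous cells.

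**Figure D4:**
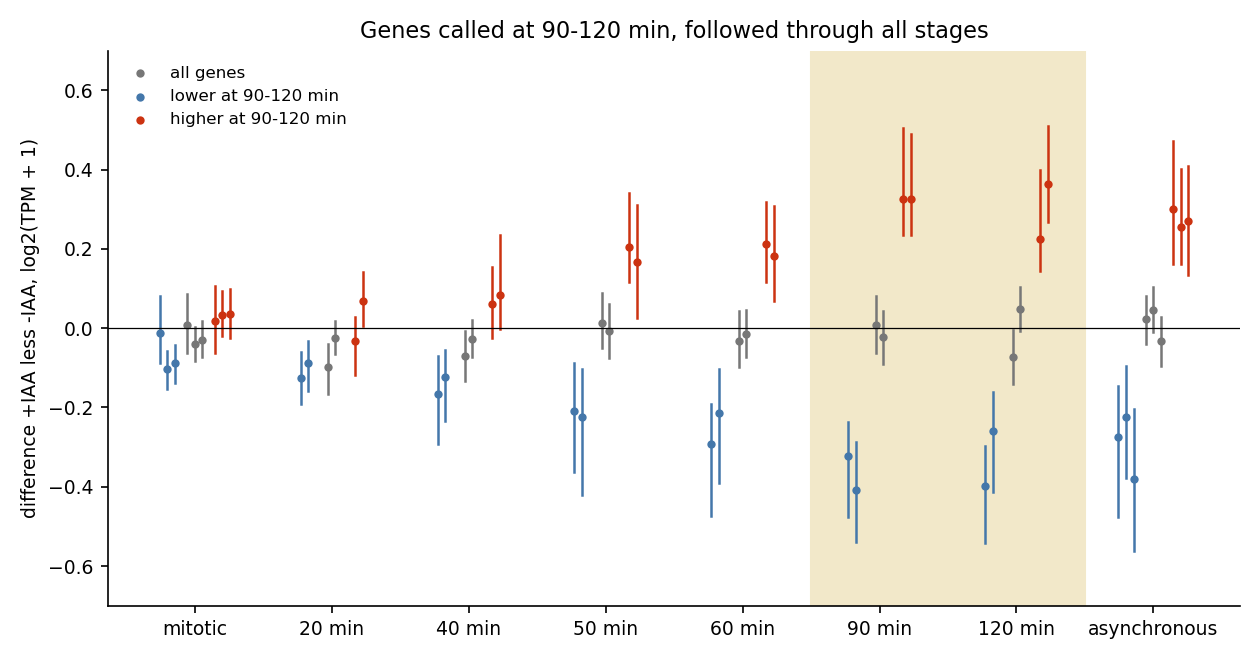
Within-pair differences (+IAA less −IAA, log2 of TPM + 1) at each stage for the 260 genes lower (blue) and the 119 genes higher (red) at 90 to 120 min and for all genes (grey). Each point is the median of 1 pair of libraries, bars run from the lower to the upper quartile over genes, and shading marks the stages used to choose the genes.

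Relative to mitosis, the lower genes had risen in −IAA cells by a median of 0.49 at 90 min and 0.34 at 120 min on the log2 scale, close to the 0.44 and 0.29 of all genes. In +IAA cells their median rise was 0.13 and 0.02, while that of all genes was 0.45 and 0.30. The higher genes rose by 0.47 and 0.37 without IAA and by 0.79 and 0.66 with IAA. Since the genes were chosen on the difference between the arms at these times, the gap between the arms follows from the choice and is a description. In single genes the lower level took different forms. Nle1 rose without IAA from a mean of 4.48 TPM in mitosis to 7.92 TPM at 90 min but declined with IAA from 3.91 to 2.58 TPM. Csnk2a2 had its lowest mean after release at 40 min without IAA, at 5.47 TPM, and stood at 10.3 TPM at 90 min, while with IAA its lowest mean after release was 3.53 TPM at 50 min, and it stood at 4.53 TPM at 90 min and 2.72 TPM in asynchronous cells. Celf5, which encodes an RNA-binding protein, rose in both arms, from 0.655 to 3.6 TPM without IAA and from 0.516 to 1.51 TPM with IAA.

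**Figure D5:**
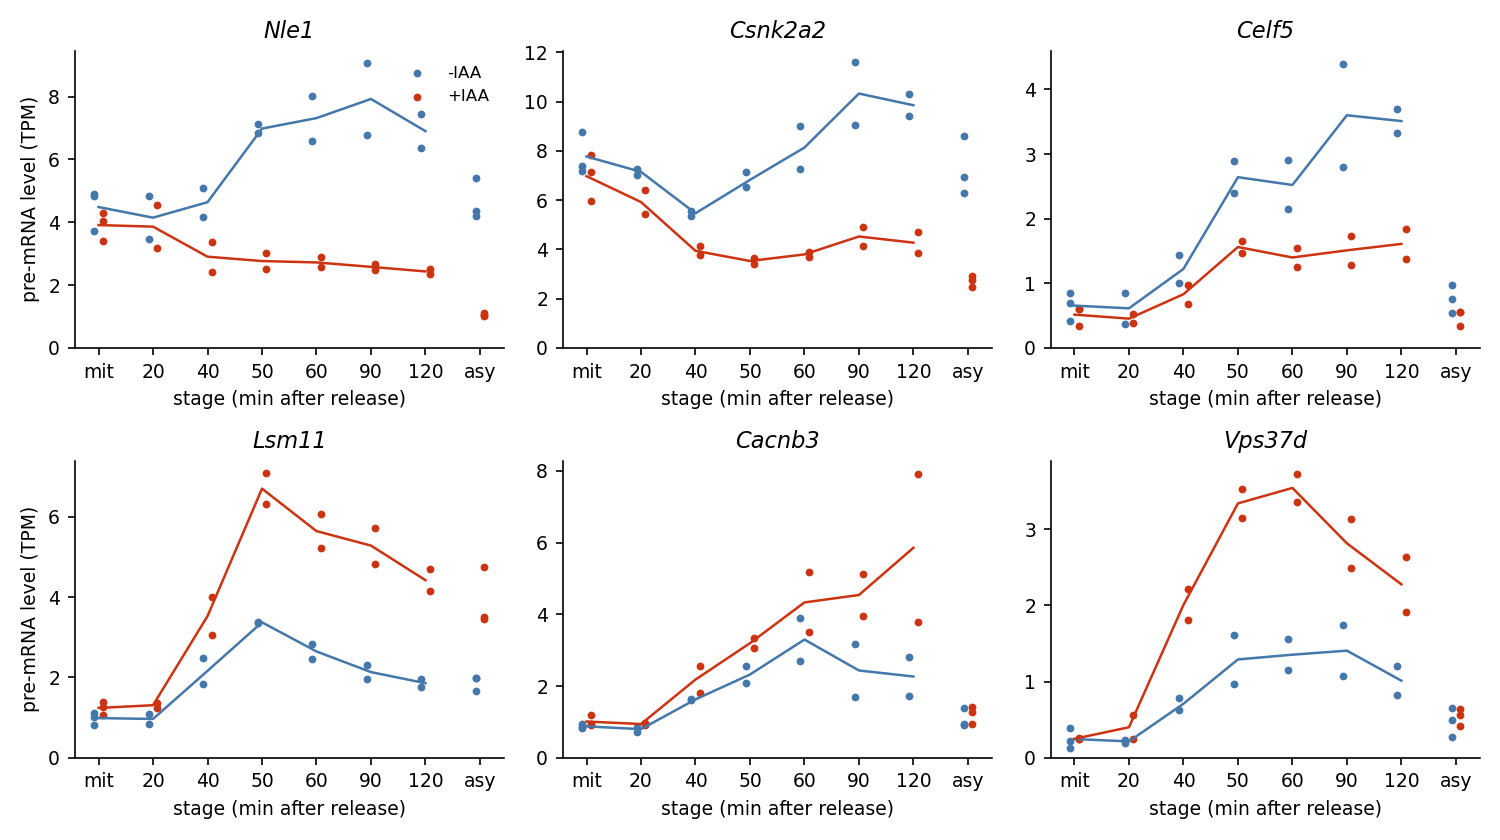
Pre-mRNA levels (TPM) of 6 genes in mitotic cells (mit), at 20 to 120 min after release and in asynchronous cells (asy), with stages evenly spaced. Points are single libraries, and lines join the means of the arms (blue, −IAA; red, +IAA). The arms are apart at 90 and 120 min for every gene shown, while those of Celf5, Cacnb3 and Vps37d overlap in asynchronous cells.

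The response to IAA at 90 to 120 min was compared directly with that at 50 to 60 min and in asynchronous cells. It differed from that at 50 to 60 min for 18 genes (0.176%), being higher for 5 and lower for 13. Cacnb3 changed by 0.87 at 90 to 120 min and by 0.32 at 50 to 60 min (difference of responses 0.55 ± 0.11; limma, adjusted p = 0.0973). Ccdc136 changed by 0.78 and 0.33 and Bysl by −0.65 and −0.33. Trpc4ap was lower at 50 to 60 min, by −0.32, and no longer at 90 to 120 min, where the difference was 0.02 (limma, adjusted p = 0.00846 for the difference of responses). It measured 0.898, 1.37, 0.798 and 1.03 TPM without and 0.899, 1.32, 0.802 and 1.19 TPM with IAA, with pair differences between −0.03 and 0.003 in 3 pairs and of 0.11 in replicate 2 at 120 min. Ccdc17 fell by 0.34 at 90 to 120 min and measured 0.12 at 50 to 60 min, although this fall itself was not called without the pairing (adjusted p = 0.313) or without replicate 1 (0.246). This count changed with the libraries and the scaling. At the same total TPM in each library 46 genes passed (17 higher and 29 lower), 14 of them shared with the 18. No gene passed without the pairing, 7 passed without replicate 1 and 10 without replicate 3 at 90 min, and 2 passed without replicate 1 and 5 without replicate 2 at 120 min.

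Against asynchronous cells the response differed for 5 genes (0.0488%), 2 higher and 3 lower. Cacnb3 was the largest, with 0.87 at 90 to 120 min and 0.10 in asynchronous cells (0.77 ± 0.12; limma, adjusted p = 0.0262). In asynchronous cells its level was 0.93, 0.912 and 1.4 TPM without and 0.945, 1.43 and 1.29 TPM with IAA, so the arms overlapped there. Vps37d changed by 0.69 and 0.07, Celf5 by −0.83 and −0.24 and Apol8 by −0.36 and −0.04. Synm, at a mean of only 0.648 TPM, changed by −0.55 and −0.11 (limma, adjusted p = 0.0145 for the difference of responses). The levels of Celf5 at 90 to 120 min were 2.81, 4.4, 3.33 and 3.69 TPM without and 1.28, 1.74, 1.38 and 1.84 TPM with IAA, without overlap. Without replicate 2 at 120 min 8 genes passed, and without the pairing 1. At the same total TPM 10 passed, 4 of them shared with the 5, and with a pseudocount of 0.1 TPM 1 gene passed, which was none of the 5.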

How the data were processed

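Libraries were ribo-depleted, stranded and paired-end. The authors used STAR for alignment to mm10, and RSEM for quantification against Gencode vM12 extended by 1 pre-mRNA isoform per gene. The deposited values are TPM of that isoform. The authors analysed curated RefSeq genes only. To enter, a gene needed a mean above 0.5 TPM, in the asynchronous cells or in 2 or more of the samples taken after release. In 6 of the 8 libraries every value is a whole multiple (within 0.02) of the lowest one, which differs between libraries (0.0219 to 0.0263). The values may therefore be rounded TPM multiplied by a factor per library that the sources used here do not name. This was not tested, and levels called TPM are the values as deposited. Depth and counting error are unknown.

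Log2(TPM + 1) was fitted with limma 3.58.1 (R 4.3.3, trended eBayes) over the 36 CTCF-AID libraries, with a block per pair and an IAA effect per stage, averaged over 90 and 120 min (residual df 10). This scale understates changes of low genes. The numbers pair the libraries: deviations from stage means correlated between arms at r from 0.513 to 0.884 over 18 pairs. At stages with only 2 replicates, among them 90 and 120 min, both pairs give the same r by construction. The p-values rest on the spread of pair differences around their stage means, pooled over the 18 pairs and moderated across genes. Stages of 1 replicate experiment count as separate pairs in it, and all pairs come from 1 clone. Headers of asynchronous libraries are garbled and were matched to labels by arm and replicate. No 2 of the 8 libraries were copies (rho 0.945 to 0.986).

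The comparison, members and gene lists were chosen with earlier results of these data known. Named were the 10 genes of largest change per direction (called, same sign in 4 pairs, mean of at least 1 TPM), Ctcf, the study's examples, up to 4 called members per list (otherwise the most abundant) and up to 3 genes per direction of each comparison of responses (mean of at least 1 TPM). Unc45b, Polr3a, Zfp212 and Synm were added once their values were known. Of 10237 symbols 10209 matched 1 gene of Gencode vM21 (GRCm38). The result of 1 gene list is not reported here. The fit was also run on simulated data, and no result of that run is reported here. Python 3.11.15 was used with pandas 2.3.3, numpy 2.4.6, matplotlib 3.10.9 and scipy 1.17.1. Alternatives varied the pseudocount, scaling, filter, threshold and pairing, or left out pairs.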

Additional observations from a re-analysis of the deposited data

Results flagged for a closer look

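Several genes responded differently to IAA at 90 to 120 min than at another stage, by the limma test of the difference of responses. Those listed here have a mean of at least 1 TPM, and genes below that level are left out. Relative to 50 to 60 min the response was higher by 0.55 for Cacnb3, 0.45 for Ccdc136 and 0.34 for Trpc4ap, and lower for Bysl (−0.32), Ccdc17 (−0.46) and Upf3a (−0.29), on the log2(TPM + 1) scale. Upf3a, a factor of nonsense-mediated decay, stood at −0.16 at 90 to 120 min, 0.13 at 50 to 60 min and −0.26 in asynchronous cells. Relative to asynchronous cells the response was higher for Cacnb3 (0.77) and Vps37d (0.62) and lower for Celf5 (−0.58) and Apol8 (−0.32).

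In 2 of 26 genes examined, 1 pair lay far from the other 3. For Prkag1 the pair of replicate 1 at 120 min rose by 0.57 on the log2 scale, less than the others, and for Tfap2c the same pair rose by 0.81, more than the others. About 1 in 20 groups is picked out in this way by chance.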

How the results depend on the processing

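The number of genes called at 90 to 120 min was 379 and stayed, as a sum of both directions, within 1.5 times that number under each alternative but one. With a pseudocount of 0.5 TPM it was 535 (182 higher and 353 lower) and with 0.1 TPM 562 (189 higher and 373 lower), so that the higher genes alone moved by more than 1.5 times from 119. Without the replicate block it was 152, and all 152 were among the 379. It ranged from 327 to 459 when a pair, or both pairs of replicate 1, were left out. Treating the 4 pairs as 3 replicate experiments gave 417, of which 346 were shared. Scaling the libraries to the same total gave 227 lower and 130 higher genes and moved the median of all genes from −0.01 to 0.002. The median over all genes lay between −0.03 and 0.01 with pairs left out. The number of genes whose response differed from that at 50 to 60 min was 18, and it was 0 without the replicate block, 46 at the same total TPM, 6 with a pseudocount of 0.1 TPM and 2 to 10 with 1 pair left out. The number that differed from asynchronous cells was 5, and it was 1 without the replicate block, 10 at the same total TPM (4 shared), 1 with a pseudocount of 0.1 TPM (0 shared) and 4 to 8 with 1 pair left out. Of the 45 named genes that were called, 11 lost the call without the replicate block and 5 under some other setting, and none changed sign. Under other calls and windows, alternatives chosen after seeing the data, the promoter shares were between 35.5 and 42.7% for lower and 18.1 and 26.5% for higher genes. Among gene pairs that do not overlap, also an alternative of that kind, 7.66% of lower genes had a lower nearest neighbour and 0% of higher genes a higher one, against 1.68% with overlaps. Depth is unknown, so low levels carry an unknown counting error.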
